A study of Homo sapiens with 16 samples.

Results

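The 10 genes described here are 9 receptor tyrosine kinases, AXL, EGFR, MET, ERBB2, KIT, IGF1R, FGFR1, EPHA2 and EPHB1, and CD44, a surface receptor for hyaluronan. They were taken by symbol from a table of 56832 gene names, as growth factor receptors and a hyaluronan receptor that an earlier description of these data named as separating its pair of cell lines. All 10 passed the filter on low counts, among 23100 genes tested. RNA was sequenced from H69 and H69M cells, both labelled as small cell lung cancer (SCLC) cells. H69 is an established neuroendocrine SCLC line. Each line carried a stable lentiviral short hairpin RNA, either against EIF6 (sheIF6) or a non-targeting control (shNTC), so the controls had been transduced too. The EIF6 protein is an initiation factor found on the large part of the ribosome and needed for its maturation. From each of these 4 kinds of cells, RNA came from the cytoplasmic lysate (cytoplasmic) or from sucrose fractions holding polysomes, the mRNAs loaded with ribosomes (polysomal). Line, hairpin and fraction make 8 groups of 2 libraries, 16 in all. Whether the 2 libraries of a group came from separate cultures is not in the labels, and the p-values here reflect no more than the scatter among these libraries, which may be technical.

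Receptor tyrosine kinases span the cell membrane, bind a ligand outside the cell and phosphorylate themselves and other proteins inside it. Adaptors such as GRB2, SHC1 and GAB proteins then pass the signal to the RAS and phosphoinositide 3-kinase pathways, while Sprouty and ERRFI1 proteins hold it back. CD44 has no kinase of its own, binds hyaluronan, and can act beside receptors such as MET and the EGFR family. Neuroendocrine SCLC is known for KIT and for low EGFR, whereas AXL, EGFR, EPHA2, MET and CD44 are known as markers of non-neuroendocrine or mesenchymal tumor cells.

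Stretches before the transcription starts of AXL, EGFR and EPHA2, which were close to absent in H69 and abundant in H69M, and of EPHB1, which rose under knockdown in H69M, are shown as the genes of the set with the widest difference between the lines and with the 1 call under knockdown. The sequences are RefSeq promoter windows (build GRCh38.p14), 250 bases upstream of the start, ended where a GENCODE v29 exon of the gene begins. Capitals mark matches to GGAATG, the core recognised by TEAD factors, or to TGANTCA, recognised by AP-1 factors, on either strand; CATTCC is GGAATG read on the other strand.
EPHA2, chr1:16156088-16156319, minus strand: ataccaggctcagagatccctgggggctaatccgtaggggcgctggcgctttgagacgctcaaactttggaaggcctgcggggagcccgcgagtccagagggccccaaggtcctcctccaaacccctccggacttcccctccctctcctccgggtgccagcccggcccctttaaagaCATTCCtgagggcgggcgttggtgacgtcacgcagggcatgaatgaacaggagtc
AXL, first start, chr19:41218973-41219202, plus strand: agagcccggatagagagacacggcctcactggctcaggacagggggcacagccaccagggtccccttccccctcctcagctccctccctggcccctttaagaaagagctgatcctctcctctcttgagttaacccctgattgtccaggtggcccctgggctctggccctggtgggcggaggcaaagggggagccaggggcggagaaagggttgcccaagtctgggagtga
AXL, second start, chr19:41226505-41226754, plus strand: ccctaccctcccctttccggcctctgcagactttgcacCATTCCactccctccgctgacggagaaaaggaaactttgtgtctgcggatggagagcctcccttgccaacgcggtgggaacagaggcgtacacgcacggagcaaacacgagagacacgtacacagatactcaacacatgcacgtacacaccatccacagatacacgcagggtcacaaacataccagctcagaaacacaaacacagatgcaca
EGFR, first start, chr7:55018767-55019016, plus strand: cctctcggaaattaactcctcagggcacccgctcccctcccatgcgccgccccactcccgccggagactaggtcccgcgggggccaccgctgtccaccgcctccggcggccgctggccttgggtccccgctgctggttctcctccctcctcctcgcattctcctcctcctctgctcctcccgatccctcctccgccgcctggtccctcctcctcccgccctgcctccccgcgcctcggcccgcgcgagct
EGFR, second start, chr7:55109589-55109722, plus strand: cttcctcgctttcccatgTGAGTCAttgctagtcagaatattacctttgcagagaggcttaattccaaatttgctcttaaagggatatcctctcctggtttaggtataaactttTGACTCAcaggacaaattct
EPHB1, chr3:134795010-134795259, plus strand: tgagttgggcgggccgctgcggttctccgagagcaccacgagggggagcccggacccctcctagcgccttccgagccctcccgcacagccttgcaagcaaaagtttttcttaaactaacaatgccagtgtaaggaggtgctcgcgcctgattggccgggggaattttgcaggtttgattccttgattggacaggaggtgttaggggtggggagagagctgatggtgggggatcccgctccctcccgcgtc
The windows of the second AXL start, the second EGFR start and EPHB1 lie inside the longer GENCODE gene model, and the others lie at its 5′ end. Windows of 9 of the 10 genes were searched, 11 windows in all. GGAATG matched in 3 of these 11 windows, against 11.9% of 35116 RefSeq windows of the same length, and TGANTCA in 2 against 6.57%. The matches were in EPHA2 (GGAATG), the second AXL window (GGAATG), the second EGFR window (both, with its GGAATG match in the exon part left out above) and ERBB2 (TGANTCA). A match is a description of letters and not a bound site.

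Libraries held 36005326 to 87269772 counts, and levels below are CPM, counts relative to the library total, after scaling by the trimmed mean of M-values (TMM). EIF6 itself stood below the controls without overlap in each line and fraction, at fitted ratios to control of 0.581 and 0.559 in H69 and 0.699 and 0.424 in H69M (cytoplasmic and polysomal). None of these 4 changes passed in edgeR after adjustment, the lowest adjusted p being 0.204. In H69M cytoplasmic RNA EIF6 read 161 and 96.3 CPM in the knockdown and 204 and 165 CPM in the control libraries. The first knockdown library there lay only just below the second control library. The summed neuroendocrine markers (12 genes) ran from 2207 to 4545 CPM in H69 and from 279 to 757 in H69M. The 12 non-neuroendocrine markers ran from 99.9 to 237 CPM in H69 and from 4467 to 7049 in H69M. Not every marker separated the lines. SCG2 (81.7 to 211 CPM in H69, 72.4 to 269 in H69M) and NCAM1 (197 to 274, 112 to 240) overlapped among the neuroendocrine ones. S100A6 (92.2 to 216, 67.2 to 262) overlapped among the others. INSM1 alone ran from 857 to 2351 CPM in H69, and VIM from 1905 to 4689 in H69M. H69M libraries also held fibroblast markers, 10 genes with a summed level of 10180 to 38460 CPM against 118 to 516 in H69, most of it COL1A1 and COL1A2. Of the 9 of these tested between the control lines, 8 were higher and 1 lower in H69M cytoplasmic RNA, and COL3A1 (51.2 to 271 CPM), LUM (18.1 to 91.2) and FAP (4.41 to 13.6) were at most 0.859 CPM in H69. DCN and TCF21 stood at no more than 0.681 and 0.0750 CPM in H69M, and THY1 was the lower one; the part of fibroblasts in the line differences was not tested. Blood cell markers (8 genes) summed to at most 8.51 CPM.

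In control cells, AXL, EGFR and EPHA2 mRNA were near the lower end of detection in H69 and among the abundant receptors in H69M. These differences between the lines are the reason the genes were chosen, so they are described and not tested. AXL, the receptor for GAS6, had 45 and 0 counts in the 2 H69 control cytoplasmic libraries (0.878 and 0 CPM) and 0 and 7 in the polysomal ones. In H69M it stood at 154 and 265.4 CPM in cytoplasmic and at 183.5 and 322 in polysomal control RNA. EGFR, the epidermal growth factor receptor, had 0 to 10 counts in each of the 8 H69 libraries, against 109.5 and 122 CPM (cytoplasmic) and 149.5 and 156 CPM (polysomal) in the H69M controls. EPHA2, an ephrin-A receptor, was at 1.56 and 0.360 CPM in H69 cytoplasmic and 315 and 152 CPM in H69M cytoplasmic control RNA. No H69 library reached any H69M library for these 3 genes. The 45 AXL counts stood in the library, H69 shNTC cytoplasmic replicate 1, that also held VIM at 17.9 CPM and CAV1 at 5.99 CPM, both of which were at most 1.66 and 0.520 CPM in the other H69 libraries; whether the 3 share a source was not tested.

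ERBB2, the ligandless partner of the EGFR family, and FGFR1, a fibroblast growth factor receptor, were also higher in H69M, but from a level well above 0 in H69. ERBB2 was at 2.26 and 3.68 CPM in H69 and at 32.3 and 58.3 CPM in H69M cytoplasmic control RNA. FGFR1 was at 17.8 and 14.6 CPM against 253 and 234 CPM, a 15.1-fold ratio of means with little spread in either line. In polysomal RNA the fitted log2 differences, H69M against H69, were 4.89 for ERBB2 and 3.98 for FGFR1. IGF1R, the insulin-like growth factor 1 receptor, and CD44 were higher by smaller amounts. IGF1R read 27.9 and 28.8 CPM in H69 and 59.6 and 100.1 CPM in H69M cytoplasmic control RNA, and CD44 183 and 90.4 CPM against 388 and 337 CPM. The H69 libraries numbered 1 held 1.75 to 2.69 times as much CD44 as those numbered 2 in all 4 H69 groups, yet every H69 control library lay below every H69M control library of its fraction.

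MET, KIT and EPHB1 did not follow that pattern. MET, the receptor for hepatocyte growth factor, was at 148 and 143 CPM in H69 and at 125 and 222 CPM in H69M cytoplasmic control RNA, so the lines overlapped. Its cytoplasmic log2 difference of 0.25 turned to -0.16 with the libraries blocked by their number and to -0.31 when taken from the sheIF6 libraries. KIT, the stem cell factor receptor, was at 46.1 and 54.1 CPM in H69, whereas the H69M control libraries split, at 3.40 and 34.3 CPM in cytoplasmic and 11.4 and 44.3 CPM in polysomal RNA. The H69M library with more KIT was also the one with more of the neuroendocrine factor INSM1, which read 1.15 and 28.4 CPM in cytoplasmic and 6.38 and 256 CPM in polysomal control RNA. Their shares of the H69 control level differed, KIT being at 68.4% and INSM1 at 2.61% in the second cytoplasmic library; the part of a second cell population in this was not tested. In bulk RNA, fewer cells of a type and less RNA per cell cannot be told apart.

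EPHB1, an ephrin-B receptor, was lower in H69M than in H69 among control libraries and higher among knockdown libraries. It read 5.80 and 14.7 CPM in H69 and 4.45 and 4.80 CPM in H69M cytoplasmic control RNA, a log2 difference of -1.15. In sheIF6 cells it read 13.8 and 14.9 CPM in H69 and 23.0 and 25.4 CPM in H69M, a log2 difference of 0.76, and in polysomal RNA the difference went from -0.55 to 1.19. KIT likewise went from -0.54 to 0.33 in polysomal RNA, with the control value resting on the H69M library numbered 1, without which it was 0.12.

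**Figure D1:**
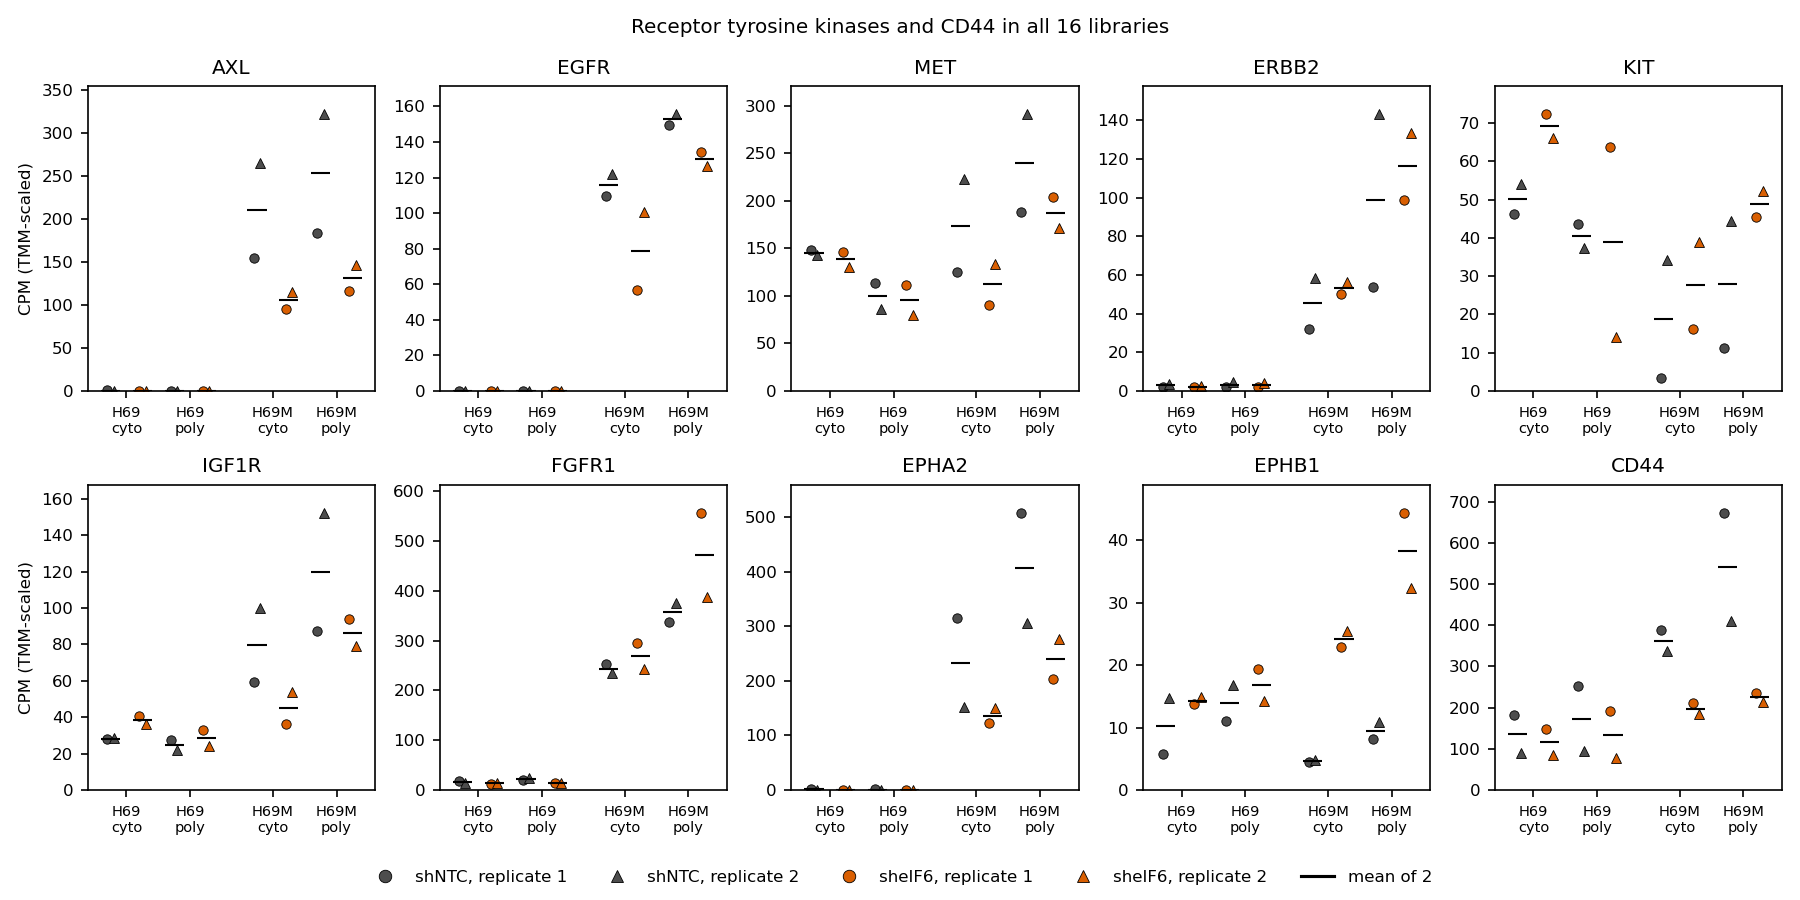
Level of each of the 10 genes in all 16 libraries, in TMM-scaled CPM on a linear axis that starts at 0 and differs between panels; circles are replicate 1, triangles replicate 2, gray shNTC, orange sheIF6, and the line is the mean of 2. AXL, EGFR and EPHA2 lie near 0 in H69, and EPHB1 rises from 4.45 and 4.80 to 23.0 and 25.4 CPM with knockdown in H69M cytoplasmic RNA.

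Between genes, levels were compared per kilobase of exon, from GENCODE v29 exon lengths. In H69 control cytoplasmic RNA the order ran from MET (20.7 ± 0.540 CPM per kb, mean ± SD, n = 2) through CD44 (13.7 ± 6.57), KIT (9.01 ± 1.01) and IGF1R (2.03 ± 0.0453) to EPHB1, FGFR1, ERBB2, EPHA2, AXL and EGFR (0.00702 ± 0.00992). Neighbours from CD44 to KIT, from IGF1R through EPHB1 to FGFR1, and from ERBB2 through EPHA2 and AXL to EGFR overlapped in their libraries. In H69M the order ran from EPHA2 (56.1 ± 27.8 CPM per kb), AXL (40.7 ± 15.3) and CD44 (36.3 ± 3.59), which overlapped, to MET (24.7 ± 9.81) and FGFR1 (17.6 ± 0.936), which overlapped too. EGFR (9.24 ± 0.705) followed alone, then IGF1R (5.73 ± 2.05), ERBB2 (4.39 ± 1.78), KIT (3.39 ± 3.93) and EPHB1 (0.665 ± 0.0357). Among 58 receptor tyrosine kinases, EPHA2 ranked 35 in H69 and 1 in H69M, AXL 41 and 3, EGFR 52 and 9, and MET 2 and 5. PTK7, a receptor with an inactive kinase, was first in H69 and second in H69M, at 33.3 and 45.1 CPM per kb. On CPM without division by length, CD44 led in H69M at 363 CPM and EPHA2 was the third.

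**Figure D2:**
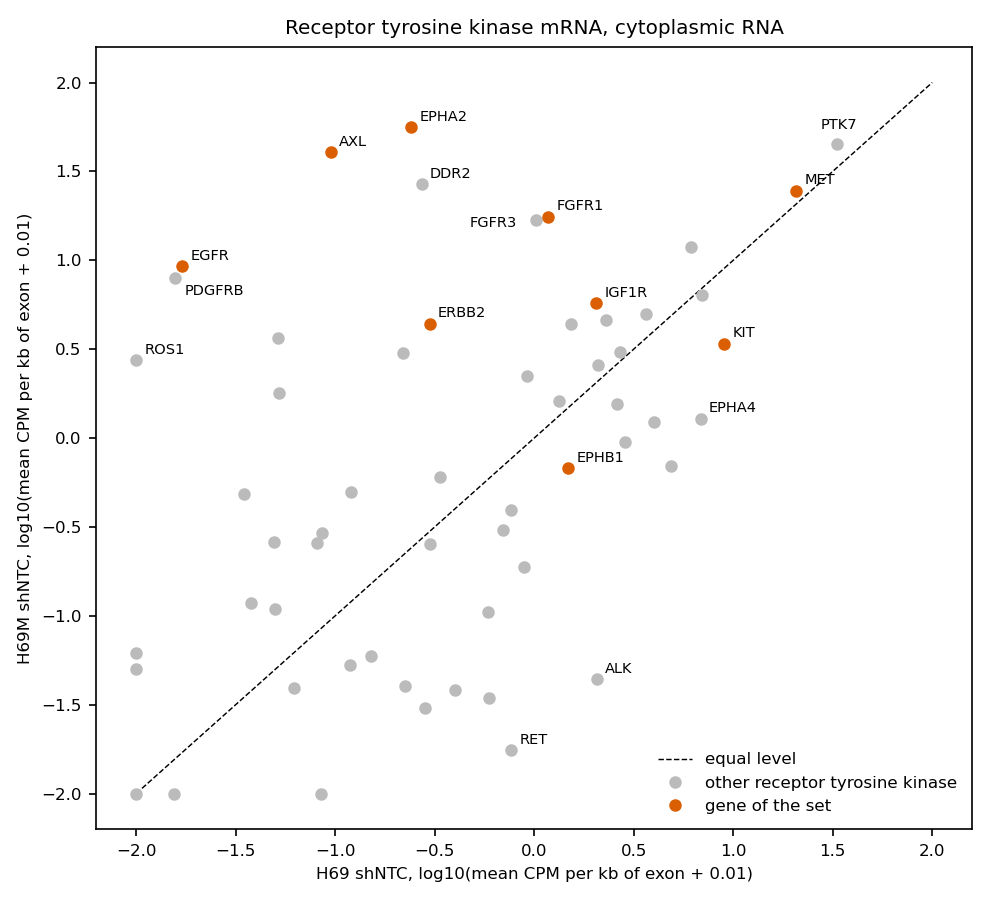
Mean level of 58 receptor tyrosine kinases in control cytoplasmic RNA of H69 (x axis) and H69M (y axis), as log10 of CPM per kilobase of exon plus 0.01, with the genes of the set in orange and equal levels on the dashed line. AXL, EGFR and EPHA2 lie far above the line beside DDR2 and PDGFRB, MET lies close to it, and KIT and EPHB1 lie below it.

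Other receptors, ligands and adaptors, which the choice of the 10 genes did not use, were tested between the control lines. Their lists were drawn up with earlier results of these data known. The shares and adjusted p of these lists therefore describe these data and are not an independent test. Of 45 other receptor tyrosine kinases tested, 13 were higher and 9 lower in H69M cytoplasmic RNA, or 48.9%, against 30.2% of all genes tested (edgeR quasi-likelihood test, adjusted p under 0.05). In polysomal RNA it was 17 and 6, or 51.1%, against 34% of all genes. With the replicate block it was 16 and 10, for which the share of all genes is not given here. DDR2, a collagen receptor, was at 287 ± 154 CPM in H69M and 2.81 ± 1.99 in H69 cytoplasmic RNA (log2 difference 6.67, adjusted p = 0.000106). PDGFRB, EPHA3 and ROS1 were higher in H69M too, and ROS1 had 0 counts in both H69 libraries. RET, ALK and EPHA8 were lower, with ALK at 0.250 ± 0.353 CPM in H69M against 15.1 ± 7.26 in H69 (log2 difference -5.88, adjusted p = 0.00261). The EPHA8 call in cytoplasmic RNA was lost when either H69 or the first H69M control library was left out.

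Ligands of the 9 receptors differed between the lines in 21 of 28 tested, 16 higher and 5 lower in H69M cytoplasmic RNA (75%, against 30.2% of all genes). Among EGFR ligands, EREG (epiregulin) was at 17.8 and 11.4 CPM and AREG (amphiregulin) at 4.40 and 1.45 CPM in H69M, and both had 0 counts in both H69 libraries (adjusted p = 3.76e-05 and 0.00172). FGF1 and FGF7, which bind fibroblast growth factor receptors, were among the ligands with the largest differences. IGF2, a ligand of IGF1R, went the other way, at 1.88 ± 1.56 CPM in H69M against 56.5 ± 20.4 in H69 (log2 difference -4.91, adjusted p = 0.00122). HGF, the ligand of MET, was lower in H69M as well, at 2.67 ± 1.53 against 16.6 ± 12.4 CPM. The call for HGF (adjusted p = 0.0475) was lost in 11 of the 16 fits that left out 1 library, among them the fit without H69 shNTC cytoplasmic replicate 1, which read 25.4 CPM against 7.80 in replicate 2. GAS6, the ligand of AXL, read 2.97 and 11.4 CPM in H69 and 28.1 and 53.7 CPM in H69M cytoplasmic control RNA, and KITLG, the ligand of KIT, 83.6 and 60.6 against 23.1 and 24.7 CPM.

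Adaptors and inhibitors were higher in H69M in 13 and lower in 6 of 36 tested (52.8%), and partners of hyaluronan and CD44 in 6 and 3 of 22 (40.9%), in cytoplasmic RNA, against the same 30.2% of all genes. The insulin-like growth factor binding proteins split, with IGFBP3, IGFBP6 and IGFBP7 higher in H69M and IGFBP5 lower, at 36.6 ± 13.5 against 756 ± 108 CPM (log2 difference -4.37, adjusted p = 7.52e-06). SHC1, an adaptor of many receptors, was at 219 ± 25.8 CPM in H69M and 20.8 ± 1.59 in H69 (log2 difference 3.40, adjusted p = 9.6e-07). IRS2, GRB7 and SPRY1 were lower in H69M. ESRP1, a splicing factor known to act on variable exons of CD44, was at 2.61 ± 1.01 CPM in H69M against 153 ± 15.7 in H69 (log2 difference -5.87, adjusted p = 0.0035). ESRP1 no longer passed when the first H69M control cytoplasmic library was left out. MSN (moesin), which links CD44 to actin, was higher in H69M with an adjusted p of 0.0441 that passed in only 2 of the 16 fits without 1 library. It read 49.9 ± 22.7 CPM in H69M and 3.01 ± 4.25 CPM in H69, where the SD exceeds the mean.

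EPHB1 was higher in sheIF6 than in control H69M cytoplasmic RNA, and no other gene of the 10 passed the test there. The first of the 2 knockdown libraries held EIF6 at 161 CPM, close to the 165 CPM of the second control library. EPHB1 read 4.45 and 4.80 CPM in the control and 23.0 and 25.4 CPM in the knockdown libraries (4.62 ± 0.248 against 24.2 ± 1.72, n = 2 each). This is a 5.23-fold rise, or a log2 change of 2.39 (SE 0.406, adjusted p = 0.0479, edgeR quasi-likelihood test over all genes tested). It is 1 called gene of 10, where 0.156% of all 23100 genes were called. The H69M control libraries also enter the line differences for which the 10 genes were chosen, so this count is a description. EPHB1 also passed with the libraries blocked by number within a line (adjusted p = 0.014, 1.16% of all genes called), in DESeq2 (6.39e-06, 1.98%) and in limma-voom (0.0372, 0.442%). The size of the change held between 2.32 and 2.47 in the fits that left out 1 library, but the call did not: only 6 of these 16 fits called it, and the call was lost without any of the 4 H69M cytoplasmic libraries, any of the 4 H69 sheIF6 libraries or either H69M sheIF6 polysomal library (highest adjusted p 0.248). It was lost with scaling by total library size as well (adjusted p = 0.0666).

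In H69M polysomal RNA EPHB1 read 8.15 and 10.9 CPM in control and 44.4 and 32.3 CPM in knockdown libraries. The log2 change was 2.01 (SE 0.399), with an adjusted p of 0.117 in edgeR, 0.0319 with the replicate block and 0.000409 in DESeq2. None of the 10 genes passed in edgeR there, where 0.0649% of all genes were called, while 2 had an unadjusted p under 0.05 (8.15% of all genes), 1 passed in DESeq2 (1.45%) and none in limma-voom. With the block, EPHB1 and CD44 passed, 2 of 10 against 0.879% of all genes. These counts rest on the same H69M control libraries as the choice of the 10 genes, and are a description. In H69 EPHB1 read 5.80 and 14.7 against 13.8 and 14.9 CPM in cytoplasmic RNA and 11.1 and 16.8 against 19.4 and 14.2 CPM in polysomal RNA, so that control and knockdown libraries overlapped in both fractions. EPHB1 shares 64 of its 6956 exon bases with KY, a gene on the opposite strand, and whether the counting used strand is not given in the sources used here.

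CD44 stood lower in the H69M knockdown libraries than in the controls in both fractions. It read 388 and 337 CPM in control and 211 and 185 CPM in knockdown cytoplasmic RNA, and 673 and 409.7 against 235 and 215 CPM in polysomal RNA, with no overlap in either. The log2 changes were -0.87 (SE 0.517) and -1.27 (SE 0.521), with adjusted p of 0.561 and 0.557 in edgeR. Blocking by library number gave -0.87 and -1.24 with adjusted p of 0.0794 and 0.0255, so that the polysomal fall passed only there. In H69 the knockdown libraries read 149 and 85.2 CPM against 183 and 90.4 in cytoplasmic RNA, and 191 and 77.9 against 253 and 94.0 in polysomal RNA. The H69 groups overlapped, and the blocked changes were -0.19 and -0.34 (adjusted p = 1 for both). Each knockdown library lay below the control library of its number in 4 of 4 pairs, as it did for MET and FGFR1. These pairs are not in the labels, and the share of all genes with 4 of 4 is not given here.

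The 3 receptors that were close to absent in H69 read lower in the H69M knockdown libraries, and none passed the test. AXL read 95.6 and 115 CPM against 154 and 265.4 in cytoplasmic RNA and 116 and 146 against 183.5 and 322 in polysomal RNA, log2 changes of -0.99 (SE 0.876) and -0.95 (SE 0.875). EPHA2 read 123 and 149.7 CPM against 315 and 152 in cytoplasmic RNA and 204 and 276 against 508 and 306 in polysomal RNA, log2 changes of -0.78 and -0.76. For EGFR, 56.6 and 100.8 CPM stood against 109.5 and 122 in cytoplasmic RNA, and 134.5 and 126.5 against 149.5 and 156 in polysomal RNA. Knockdown and control libraries of these genes did not overlap in either fraction, although the second EPHA2 control library lay only just above the knockdown libraries in cytoplasmic RNA. Counting CD44, 4 of the 10 genes were below the controls in both fractions of H69M without overlap, against 8.83% of all genes, and EPHB1 alone was above them in both, against 8.03%. The same H69M control libraries enter the line differences for which the 10 genes were chosen, so these counts are a description. Some non-neuroendocrine markers also read lower with knockdown. In H69M YAP1 read 273 and 245 CPM in control against 96.2 and 168 in knockdown cytoplasmic RNA, and KRT17 989 and 927 against 647 and 352, with no overlap in either fraction. VIM overlapped, at 1910 and 2800 against 3820 and 2600 CPM. The median log2 change of the 12 markers was -0.48 in each fraction, with 4 and 3 above 0 and none called in edgeR, while their summed level overlapped between control (4903 to 5691 CPM) and knockdown (4467 to 6290 CPM) in cytoplasmic RNA. Of the 12 neuroendocrine markers, 9 were above 0 in cytoplasmic RNA (median log2 change 0.29) and 5 in polysomal RNA (median -0.19). In edgeR 1 of these 12 was called higher in each fraction (8.33%), against 0.156% and 0.0649% of all genes called. The part of the cells with either set of markers in the receptor values was not tested.

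MET and IGF1R read 125 and 222 CPM and 59.6 and 100.1 CPM in H69M control cytoplasmic RNA, against 90.9 and 133 CPM and 36.5 and 54.1 CPM in knockdown RNA. The log2 changes were -0.63 (SE 0.315) for MET and -0.82 (SE 0.320) for IGF1R, with adjusted p of 0.495 and 0.380. FGFR1 moved little in cytoplasmic RNA, at 253 and 234 against 295 and 244 CPM, and stood at 557 and 387 CPM in knockdown against 338 and 377 in control polysomal RNA (log2 change 0.40, SE 0.214, adjusted p = 0.667). ERBB2 read 49.96 and 56.5 CPM in knockdown against 32.3 and 58.3 in control cytoplasmic RNA, and the direction of its log2 change of 0.23 turned to -0.13 without the H69M control libraries numbered 1. KIT read 16.3 and 39.0 against 3.40 and 34.3 CPM, a log2 change of 0.55 that was -0.31 without the same control libraries. Over the 10 genes the median log2 change was -0.59 in cytoplasmic and -0.29 in polysomal RNA, against 0.00 and -0.01 for all genes tested. These medians of the 10 genes rest on the H69M control libraries that also enter the line differences for which they were chosen. In cytoplasmic RNA the median was -0.33 over the 45 other receptor tyrosine kinases and -0.44 over the 36 adaptors and inhibitors. Of these, 17 and 6 genes were above 0, against 49.2% of all genes. The 28 ligands and 22 hyaluronan and CD44 partners had medians of 0.09 and -0.18, with 15 and 9 above 0. In polysomal RNA the medians, in the same order, were -0.06, -0.26, -0.27 and 0.06.

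**Figure D3:**
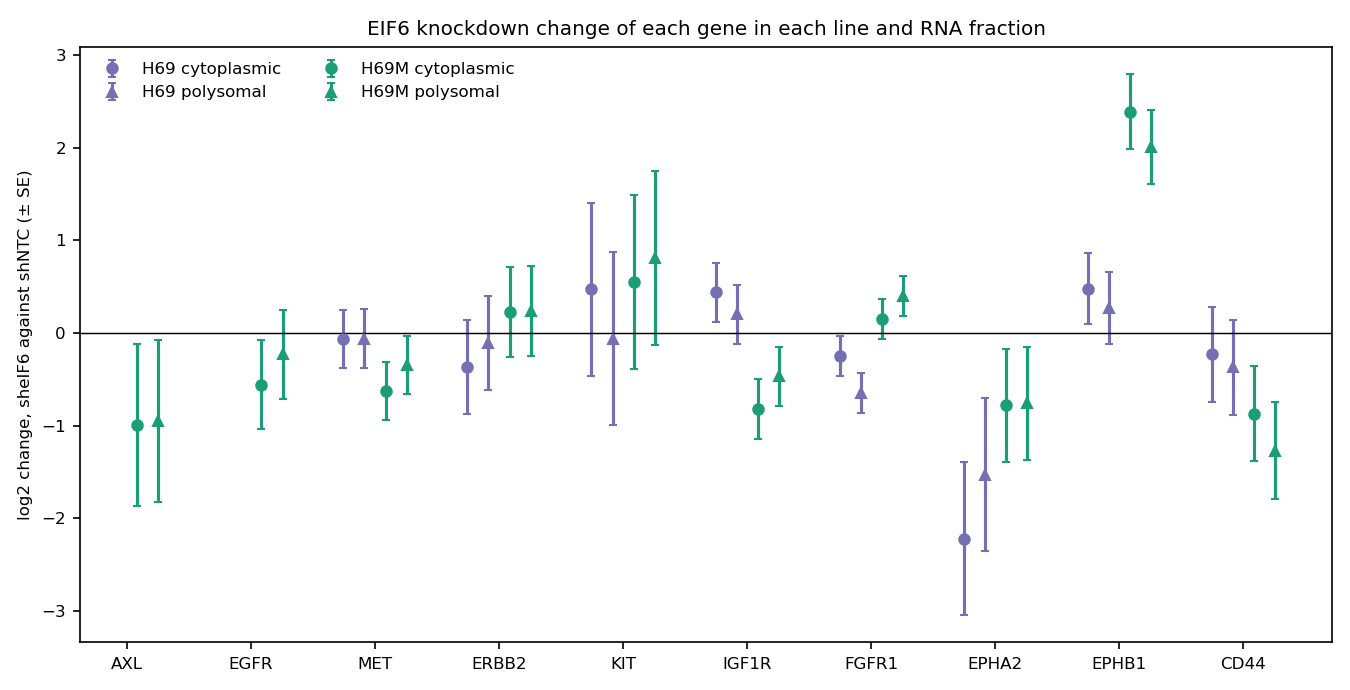
Log2 change, sheIF6 against shNTC, with its standard error from edgeR for each gene in each line (H69 violet, H69M green) and fraction (circles cytoplasmic, triangles polysomal); AXL and EGFR have too few counts in H69 to be drawn. EPHB1 in H69M stands apart at 2.39 and 2.01, and CD44 lies lowest of the H69M values at -1.27 in polysomal RNA.

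In H69 none of the 10 genes passed the test under knockdown in either fraction. In edgeR 0 of 23100 genes passed in cytoplasmic RNA and 0.00433% in polysomal RNA. On simulated counts the same fit called 1 of 50 genes changed 2-fold in each of these fractions. Changes of that size would thus mostly go uncalled. Of the 10 genes, 1 had an unadjusted p under 0.05 in each fraction, against 3.01% and 4.14% of all genes, and DESeq2 and limma-voom called none. FGFR1 read 17.8 and 14.6 CPM in control and 12.9 and 14.3 CPM in knockdown cytoplasmic RNA, and 21.0 and 24.1 against 14.3 and 14.4 CPM in polysomal RNA. It was the 1 gene of the 10 whose knockdown libraries lay below the controls in both fractions of H69, against 4.9% of all genes, and none lay above them in both, against 4.05%. Its log2 changes were -0.25 (SE 0.216) and -0.65 (SE 0.217), with adjusted p of 1 and 0.894. EPHA2 went from 80 and 18 counts to 6 and 14 in cytoplasmic RNA (log2 change -2.22, SE 0.830, adjusted p = 1), most of the difference lying in the first control library. IGF1R read 27.9 and 28.8 against 40.7 and 36.1 CPM in cytoplasmic RNA, log2 0.44 (SE 0.319), and KIT 46.1 and 54.1 against 72.4 and 66.2 CPM, log2 0.47 (SE 0.937). In polysomal RNA the H69 knockdown libraries had 63.7 and 14.2 CPM of KIT, the widest split of any H69 group for that gene.

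The knockdown change was also compared directly between the lines, H69M minus H69. No gene of the 10 passed in edgeR in either fraction, where 0.0303% and 0.00433% of all genes did. An unadjusted p under 0.05 was met by 2 of the 10 in each fraction, against 4.93% and 5.09% of all genes, and DESeq2, limma-voom and the blocked fit called none. The control libraries in this comparison also enter the line differences behind the choice of the 10 genes, so these counts are a description. EPHB1 differed by 1.90 on the log2 scale in cytoplasmic RNA (95% interval 0.71 to 3.10, adjusted p = 0.657) and by 1.74 in polysomal RNA (0.55 to 2.93, adjusted p = 0.681). IGF1R differed by -1.26 (-2.23 to -0.28, adjusted p = 0.876) in cytoplasmic RNA, having read higher in H69 and lower in H69M with knockdown. FGFR1 differed by 1.06 in polysomal RNA (0.40 to 1.72, adjusted p = 0.563), having read lower in H69 and higher in H69M. For CD44 the differences were -0.65 (-2.22 to 0.93) and -0.90 (-2.47 to 0.68), intervals that hold 0. The EPHB1 rise in H69M was thus not shown to differ from its change in H69 after adjustment.

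None of the 45 other receptor tyrosine kinases, 28 ligands, 36 adaptors and inhibitors and 22 hyaluronan and CD44 partners tested passed in edgeR under knockdown, in either line or fraction. In H69M cytoplasmic RNA the counts with an unadjusted p under 0.05 were 9, 4, 10 and 3, those called by DESeq2 2, 4, 4 and 0, and those called by limma-voom 0, 2, 1 and 0. Over all genes these shares were 11%, 1.98% and 0.442%. With the replicate block 2 receptors, 3 ligands and 2 adaptors passed there, against 1.16% of all genes, and they are named here after their values were seen. In polysomal RNA the block called EPHA4 and IGFBP5, where it called 0.879% of all genes. An unadjusted p under 0.05 was met there by 9, 7, 8 and 1 genes of the lists, against 8.15% of all genes. DESeq2 called 2, 2, 3 and 0, against 1.45%, and limma-voom called none.

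EREG, NRG1 and EFNB2, the 3 ligands, all read lower in the H69M knockdown. NRG1 encodes neuregulin, which binds ERBB3 and ERBB4 and so signals through ERBB2. It read 34.8 and 27.8 CPM in control and 6.44 and 11.0 CPM in knockdown cytoplasmic RNA (log2 change -1.85, SE 0.420), with an adjusted p of 0.137 in edgeR and 0.0367 with the block. It also read lower in H69, at 5.95 and 2.96 against 0.865 and 0.938 CPM (log2 change -2.30, adjusted p = 0.380, and 0.103 with the block). In DESeq2 NRG1 passed in both lines and both fractions, with adjusted p from 0.0011 to 0.0126. EREG fell with the block from 17.8 and 11.4 to 1.72 and 2.71 CPM in H69M (log2 change -2.70, adjusted p = 0.0476, and 0.149 without it), and had 0 counts in all H69 libraries of both hairpins.

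EFNB2 encodes ephrin-B2, a ligand of EPHB receptors and EPHA4. It read 122 and 173 CPM in H69M control and 46.5 and 83.8 CPM in knockdown cytoplasmic RNA (log2 change -1.17, adjusted p = 0.171, and 0.0441 with the block), the opposite direction to EPHB1. In H69 it read 61.3 and 60.7 CPM in control and 90.5 and 90.6 CPM in knockdown, a log2 change of 0.57. The difference between the lines was -1.74 (SE 0.405), with an adjusted p of 0.439 in edgeR, 0.0881 with the block and 0.039 in DESeq2. The other ephrin-B ligands did not read lower in H69M cytoplasmic RNA. EFNB1 read 81.9 and 119 CPM in knockdown against 35.5 and 73.4 in control, the same direction as EPHB1. It was also higher in polysomal RNA, at 156 and 194 against 54.5 and 143 CPM. EFNB3 overlapped, at 7.61 and 3.76 against 4.57 and 0.817 CPM in cytoplasmic RNA. EPHA4, another receptor of ephrin-B2, read 7.27 and 11.97 CPM in H69M control and 2.39 and 4.07 CPM in knockdown cytoplasmic RNA (log2 change -1.58, adjusted p = 0.201, and 0.00418 with the block). MERTK, a receptor of the AXL family, read 14.6 and 6.38 against 3.33 and 1.77 CPM (log2 change -2.04, adjusted p = 0.240, and 0.0175 with the block).

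The 2 adaptors moved in opposite directions. GAB2, a docking protein for several receptors, read 105 and 67.9 CPM in H69M control and 27.6 and 38.3 CPM in knockdown cytoplasmic RNA (log2 change -1.39, adjusted p = 0.0541, and 0.0206 with the block). GRB7, which binds ERBB2 and EPHB1, read 1.07 and 1.08 against 4.26 and 6.21 CPM (log2 change 2.28, adjusted p = 0.0556, and 0.0162 with the block). In H69 the log2 changes of these genes were 0.07 and 0.22. IGFBP5, which binds insulin-like growth factors, read 98.8 and 111 CPM in control and 25.8 and 41.4 CPM in knockdown polysomal RNA (log2 change -1.64, adjusted p = 0.152, and 0.0457 with the block).

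**Figure D4:**
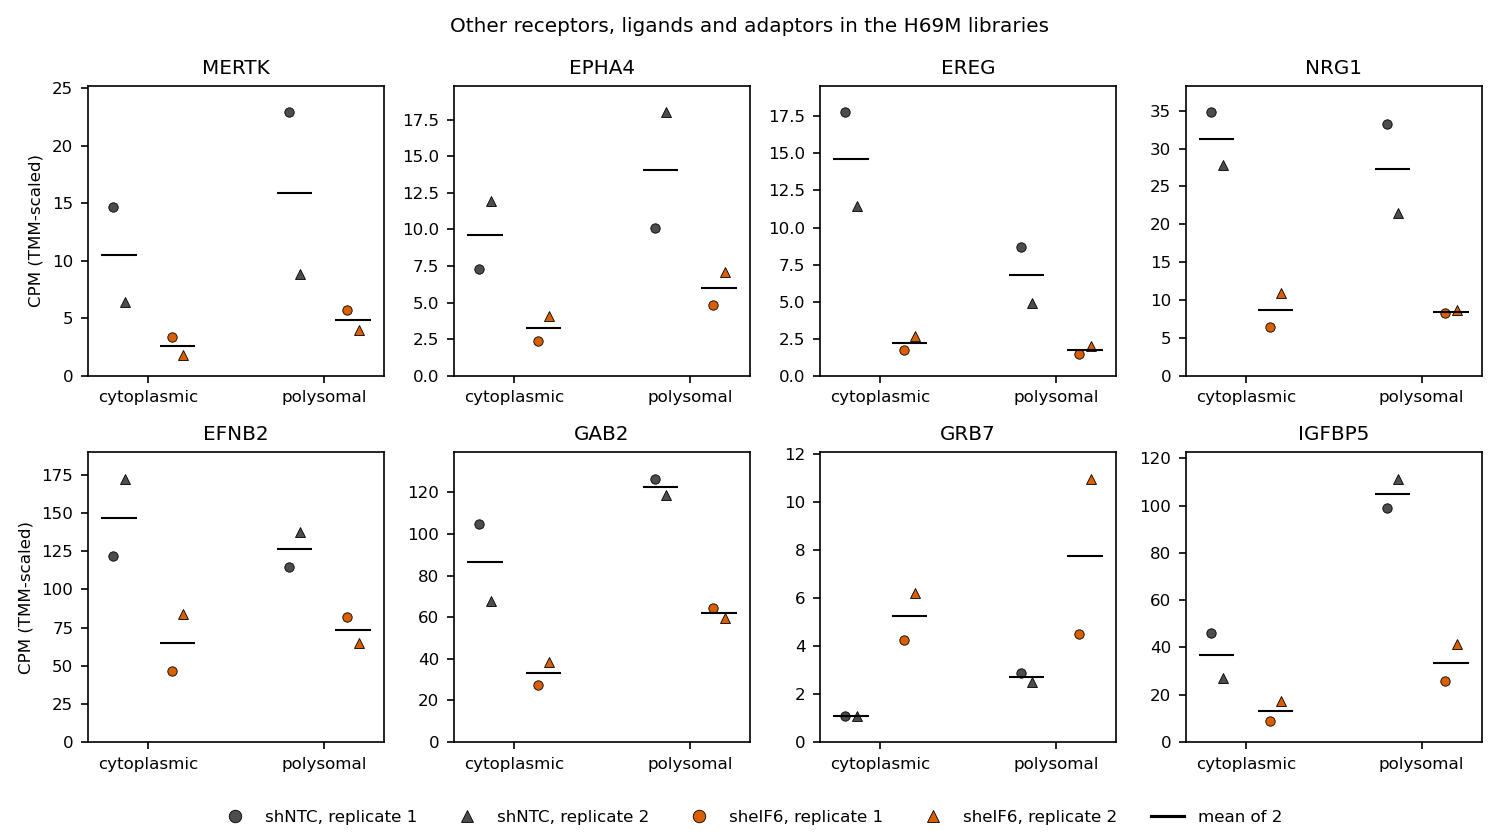
The 8 receptors, ligands, adaptors and binding proteins called with the replicate block, in the H69M libraries of both fractions (TMM-scaled CPM, linear axes from 0, circles replicate 1, triangles replicate 2, gray shNTC, orange sheIF6, line the mean of 2). GRB7 is the one that read higher with knockdown, and the other 7 read lower in both fractions without overlap. Over all genes, 8.03% were higher and 8.83% lower in both fractions without overlap. The 8 were picked by their calls in these same libraries, so their separation is a description.

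Polysomal RNA was set against cytoplasmic RNA in control cells to ask how far each mRNA was enriched on polysomes. In H69M all 10 genes had a higher polysomal than cytoplasmic level, with log2 differences of 0.27 to 1.12 and a median of 0.57, where the median of all genes was 0.00 and 48.4% of them were above 0. None of the 10 passed in edgeR, against 4.7% of all genes. An unadjusted p under 0.05 was met by 3 (20.3% of all genes), DESeq2 called 2 (12.2%), limma-voom none, and the block 1 (11.1%). ERBB2 was the gene called with the block, at 32.3 and 58.3 CPM in cytoplasmic and 53.8 and 143 CPM in polysomal RNA (log2 1.12, adjusted p = 0.221, and 0.0273 with the block). DESeq2 called FGFR1 (adjusted p = 0.0417) and EPHB1 (0.0499). The 45 other receptor tyrosine kinases had a median of 0.59 in the same comparison, close to that of the 10 genes.

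In H69, AXL and EGFR had too few counts for such a ratio. Of the other 8 genes 4 were above 0, with a median of 0.01 against -0.14 for all genes and 41.9% of them above 0. None of the 10 passed in edgeR, against 11.8% of all genes, 1 had an unadjusted p under 0.05 (27.2% of all genes), and DESeq2 and limma-voom called none. MET read 148 and 143 CPM in cytoplasmic and 113 and 86.2 CPM in polysomal control RNA of H69, a polysomal to cytoplasmic ratio of 0.764 and 0.603 by library number. In H69M the MET ratios were 1.51 and 1.31. The difference of the log2 enrichment between the lines was 1.01 for MET (SE 0.444, 95% interval 0.05 to 1.97, adjusted p = 0.523). It was above 0 for the 8 genes other than AXL and EGFR, where 54.9% of all genes and 39 of the 45 other receptor tyrosine kinases were, and none of the 10 passed in edgeR, DESeq2 or limma-voom (1 with an unadjusted p under 0.05 against 9.21% of all genes, 0 of 23100 genes called in edgeR). With total library size in place of TMM, the median over all genes in polysomal against cytoplasmic RNA moved by -0.34 (H69) and -0.26 (H69M), which left 2 of those 8 genes above 0 in H69 and 10 of 10 in H69M.

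No change of this enrichment under knockdown passed the test. The change of the polysomal minus the cytoplasmic log2 level passed for none of the 10 genes in either line, and 0 of 23100 genes passed in edgeR in either. No gene of the 10 had an unadjusted p under 0.05 or was called by DESeq2 or limma-voom. In H69M the ratios of EPHB1 by library number were 1.83 and 2.27 in control and 1.93 and 1.27 in knockdown cells, while its level rose in both fractions. CD44 went from 1.73 and 1.21 to 1.12 and 1.16, and IGF1R from 1.47 and 1.52 to 2.57 and 1.47, the high value lying in the libraries numbered 1, where EGFR (2.38) and MET (2.24) were also highest.

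**Figure D5:**
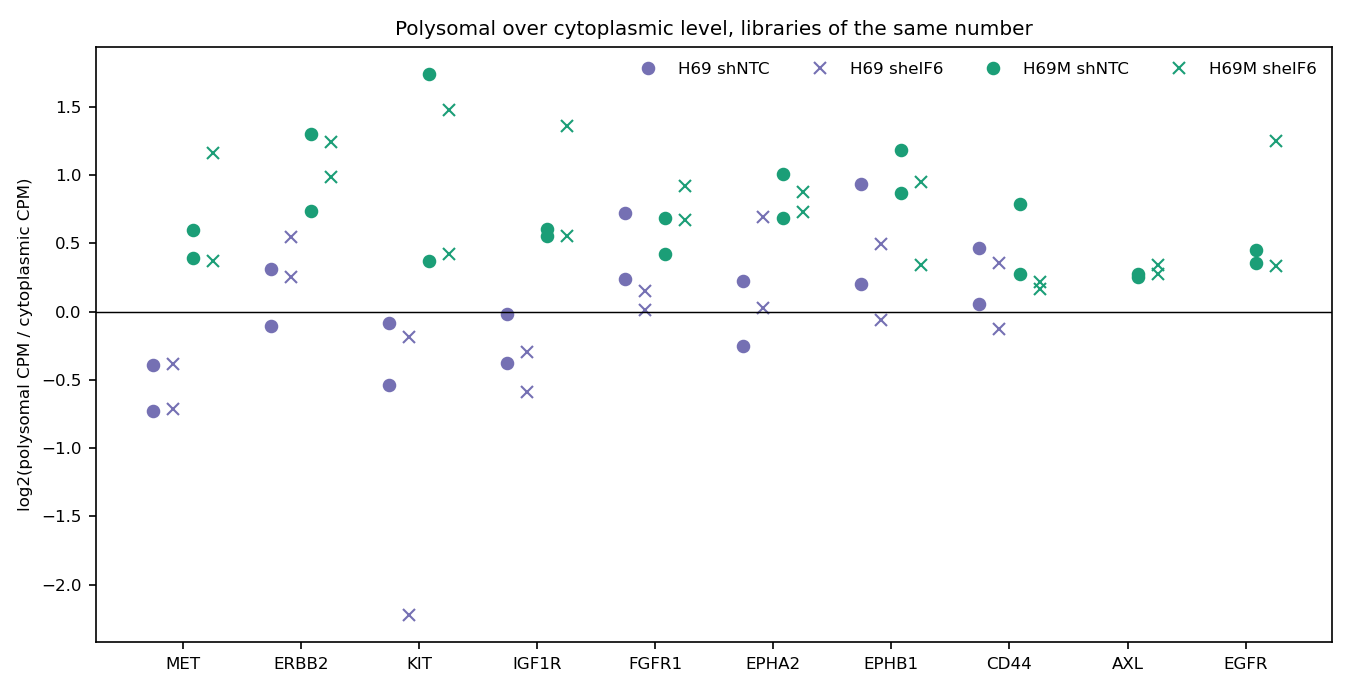
Log2 of polysomal over cytoplasmic CPM for libraries of the same number, in H69 (violet) and H69M (green), with control (dots) and knockdown (crosses). All H69M points lie above 0, MET, KIT and IGF1R lie below 0 in H69, and AXL and EGFR are drawn for H69M only because H69 had too few counts.

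Genes whose level followed 9 of the 10, all but FGFR1, most closely were found over the 8 libraries of the line with more of it, as Pearson correlations of log2 CPM among 11888 genes in H69M or 11468 in H69. These libraries share hairpins, fractions and numbers, so the correlations are a description. EPHB1 went with CADM4 (r = 0.995) and KIAA0319 (0.988), and CD44 with SERPINE2 (0.992) and PLK2 (0.988). AXL went with OLFML3 (0.997) and LOXL4 (0.988), and EPHA2 with ABTB2 (0.986) and NBR1 (0.980). MET and IGF1R were each among the 2 closest genes of the other (0.992), and TMEM245 was the closest of both (0.996 and 0.998). ERBB2 went with ABCA3 (0.996), EGFR with YLPM1 (0.993) and, in H69, KIT with MAST4 (0.984).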

How the data were processed

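RNA-seq libraries from 16 samples of H69 and H69M cells were analysed from the authors' deposited table of raw counts per gene for 56832 names. Per the submitters' processing notes, reads were aligned with STAR to GRCh38 (hg38) and counted with HTSeq; versions and the strand setting are not given in the sources used here, so genes that overlap on opposite strands can share reads.

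The analysis used edgeR 4.0.16 (R 4.3.3), with filterByExpr (minimum count 10, 23100 genes kept), TMM scaling, and 1 robust quasi-likelihood fit with a mean for each of 8 groups (8 residual degrees of freedom, common dispersion 0.153). In each of 13 contrasts, p-values were adjusted (Benjamini-Hochberg) across the 23100 genes, with a limit of 0.05. The SE comes from the log2 change and its F statistic, and intervals are 95%. Totals of 36005326 to 87269772 counts gave counting error far below the spread between libraries (chi-square per degree of freedom 24.8 to 244).

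Libraries of the same number within a line deviated together (r = 0.168 to 0.280 over 6 pairs of groups in H69, 0.172 to 0.578 over 6 in H69M), and between lines they did not (-0.107 to 0.0457, 16 pairs). The labels do not state this pairing, so it comes from the data. Fits with a replicate block nested in the line (6 residual degrees of freedom, common dispersion 0.0881) are given beside results whose call changed.

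Levels are CPM; per-kilobase levels used GENCODE v29 exon lengths, matched by name for 29502 names. The 10 genes are given in every library; from each list up to 4 genes per direction past the limit whose mean count reached 50 in the group with more could be named, together with ligands of the receptors, and others are said to be named after their values were seen. For likeness, genes needed a mean count of at least 100. The likeness result for FGFR1 is not reported here. The genes and lists were chosen with earlier results of these data known. Alternatives were RLE scaling, total library size, no filter, a filter of 50 counts in 2 libraries, limma-voom (limma 3.58.1), DESeq2 1.42.0, 1 line alone, the block, each library left out, and pairs of control libraries left out. The fit was tested on simulated data for the knockdown contrasts, with 50 genes changed at each size. It called 1 of 50 genes at 2-fold in each contrast, 27 to 30 at 4-fold and 40 to 44 at 8-fold.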

Additional observations from a re-analysis of the deposited data

How the results depend on the processing

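The 85 log2 values of the 10 genes were recomputed under the alternatives, which gave 2286 values in all. Of these, 2179 kept their direction and side of the threshold, 38 lost and 18 gained a call, and 51 changed sign. Among the 51, 1 was of a value called in the main fit. The number of the 10 genes called in H69M cytoplasmic RNA under knockdown (1) was 0 with total library size, with 1 line alone, and without the H69M control libraries numbered 1 or numbered 2, and 0 to 1 with 1 library left out. In H69M polysomal RNA (0) it was 1 with DESeq2, 2 with the replicate block and 1 without the H69 control libraries numbered 1. For polysomal against cytoplasmic RNA in H69M (0) it was 2 with DESeq2 and 1 with the replicate block. The block moved no other count of the 10 genes by over 1.5 times, but it took the count of other receptor tyrosine kinases lower in H69M polysomal RNA from 6 to 10, that of ligands from 2 to 6 and that of hyaluronan and CD44 partners from 2 to 4. The share of all genes called with the block is not given for these line differences, so the moves are not read as results about the lists. The cause of these moves was not tested.

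Sign changes were as follows. Without the H69 control libraries numbered 1, H69 knockdown values became -0.03 for EPHB1 and 0.37 for CD44 (cytoplasmic), and 0.15 for MET, 0.06 for KIT and 0.52 for CD44 (polysomal), and EPHA2 polysomal against cytoplasmic became 0.23. That setting breaks up pairs of the same number, a pairing taken from the data. Within the pairs CD44 was lower in 4 of 4, as were MET and FGFR1. Without the H69M control libraries numbered 1, chosen after seeing the data, knockdown values in H69M became -0.13 for ERBB2 and -0.31 for KIT (cytoplasmic) and -0.29 for ERBB2 (polysomal), and the polysomal line difference of KIT 0.12. With total library size, H69 polysomal against cytoplasmic became -0.17 for ERBB2 and -0.02 for CD44. The cytoplasmic line difference of MET was -0.16 with the block, -0.22 without the H69M control libraries numbered 2 and -0.31 from the sheIF6 libraries, an alternative also added after seeing the data. The latter gave 0.76 and 1.19 for EPHB1 (cytoplasmic and polysomal) and 0.33 for KIT (polysomal).

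Values that changed sign when 1 library was left out are given here by their lowest and highest value. In the H69 cytoplasmic knockdown, the range was MET -0.15 to 0.01, ERBB2 -0.68 to 0.02, EPHB1 -0.03 to 1.31 and CD44 -0.68 to 0.37. Under H69 polysomal knockdown, the range was MET -0.33 to 0.17, ERBB2 -0.57 to 0.55, KIT -1.51 to 0.66, IGF1R -0.05 to 0.42 and CD44 -1.16 to 0.52. With H69M cytoplasmic knockdown, the range was ERBB2 -0.13 to 0.73 and KIT -0.31 to 3.03. With H69M polysomal knockdown, the range was ERBB2 -0.29 to 1.11. For the change of polysomal enrichment in H69M, the range was CD44 -0.72 to 0.01. For polysomal against cytoplasmic RNA in H69, the range was ERBB2 -0.49 to 0.62, EPHA2 -1.19 to 1.26, EPHB1 -0.07 to 1.27 and CD44 -0.54 to 0.94. For the same in H69M, the range was AXL -0.19 to 0.72 and KIT -0.73 to 3.04. For the cytoplasmic line difference, the range was MET -0.22 to 0.61. For the polysomal line difference, the range was KIT -1.83 to 0.12.
On CPM not divided by exon length, 8 of 10 genes kept their rank in H69 and 5 in H69M. All alternatives were run. With 2 libraries a group, the spread between libraries and not depth limits these values. Leaving out 1 library leaves a group of 1, whose spread is then taken from the remaining groups.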
